A study of Mus musculus with 8 samples.

Results

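The replication-dependent histone genes were followed in the adult mouse brain after fetal alcohol exposure. The members were the probe sets whose annotated symbols all belong to the clustered H1, H2A, H2B, H3 and H4 genes, by their current or older names. This gave 55 of the 23410 probe sets that carry a gene symbol: 5 for H1, 5 for H2A, 18 for H2B, 13 for H3, 13 for H4 and 1 shared by the linker histone gene H1f4 and the H2B gene H2bc6. A total of 31 members carried 1 symbol and 24 carried several, so the second kind reads out a class more than a gene. Expression was measured on 8 arrays in whole brains of male C57BL/6J mice at postnatal day 70. In the early groups the mothers received ethanol or saline alone on gestational days 8 and 11 (ethanol early and saline early). By the study's methods, each day of ethanol treatment had 2 injections of 2.5 g/kg, given 2 hours apart. In the late groups the same treatments fell on gestational days 14 and 16 (ethanol late and saline late). Each of the 4 groups was measured as 2 pools of RNA from 3 mice, 1 pool to an array, so the spread within a group is that between pools and not between single animals. For its miRNA arrays the study pooled mice of different litters. For the present arrays the labels say only that pooling was meant to lessen litter effects, so the p-values measure the spread between these pools.

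Clustered histone genes supply the histones that package newly copied DNA, and their transcription rises sharply as cells copy their genome. Their mRNAs end in a stem-loop in place of a poly(A) tail, and they decay when replication stops. Most cells of the adult brain no longer divide and replace their histones from separate, replication-independent genes such as the H3.3 gene H3f3a. H2A, H2B, H3 and H4 form the core particle around which DNA is wrapped, and H1 binds the linker between particles.

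The promoters of the members share short elements, and 49 of the 55 symbols named by the members had an entry in RefSeq (build GRCm38.p6). In the 200 bases before the start, both strands were searched for the octamer ATTTGCAT, known from H2B genes as a site of the factor Oct-1, for the CCAAT box (CCAAT) and for the TATA box (TATAAA). The octamer was found in 11 of the 49 genes (22.4%), against 1.58% of all 27025 genes of the table. It lay in 4 of 5 H2A genes and 7 of 16 H2B genes, and in 0 of 6 H1, 0 of 10 H3 and 0 of 12 H4 genes. The windows of H2ac1 and H2bc1 overlap, as do those of H2ac8 and H2bc8. In each pair the octamer is the same site read from opposite strands, so the 11 genes do not hold 11 separate sites. CCAAT was present in 38 of the 49 genes (77.6%), against 32.7% of all genes, and in 3 of the 12 H4 genes. TATAAA was present in 22 of the 49 genes (44.9%), against 11.7% of all genes. A match is a description of these letters and not evidence of binding.

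The windows of 5 members with 1 symbol are given because the results turn on them or contrast with them. H2bc14 and H2ac15 passed the thresholds after late exposure. H2bc8 is an H2B gene with the octamer whose value was not lower in that comparison. H1f2 had the smallest p of the early comparison, and H4c4 represents H4. Capitals mark the octamer, CCAAT and TATAAA on either strand, and in these windows no copy of one overlaps a copy of another. All lie on chromosome 13, H2bc14 at chr13:21721844-21722043 (plus strand), H2ac15 at chr13:21753913-21754112 (minus), H2bc8 at chr13:23571200-23571399 (plus), H1f2 at chr13:23738607-23738806 (plus) and H4c4 at chr13:23581368-23581567 (plus).
H2bc14: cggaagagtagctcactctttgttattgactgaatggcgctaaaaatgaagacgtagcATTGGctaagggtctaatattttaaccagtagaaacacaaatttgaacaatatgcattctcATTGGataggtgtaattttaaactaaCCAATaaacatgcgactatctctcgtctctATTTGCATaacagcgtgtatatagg
H2ac15: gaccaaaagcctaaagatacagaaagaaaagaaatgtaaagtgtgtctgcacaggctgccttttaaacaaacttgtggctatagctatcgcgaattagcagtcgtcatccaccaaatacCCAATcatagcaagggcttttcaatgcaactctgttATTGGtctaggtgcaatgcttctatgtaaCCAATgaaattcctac
H2bc8: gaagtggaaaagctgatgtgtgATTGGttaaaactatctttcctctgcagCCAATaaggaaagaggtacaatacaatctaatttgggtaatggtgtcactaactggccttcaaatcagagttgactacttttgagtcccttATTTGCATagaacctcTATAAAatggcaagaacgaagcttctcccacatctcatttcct
H1f2: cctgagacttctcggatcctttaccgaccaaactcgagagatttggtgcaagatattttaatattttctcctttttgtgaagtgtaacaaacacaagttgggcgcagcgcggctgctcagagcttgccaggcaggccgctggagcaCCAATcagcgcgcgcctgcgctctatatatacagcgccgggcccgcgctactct
H4c4: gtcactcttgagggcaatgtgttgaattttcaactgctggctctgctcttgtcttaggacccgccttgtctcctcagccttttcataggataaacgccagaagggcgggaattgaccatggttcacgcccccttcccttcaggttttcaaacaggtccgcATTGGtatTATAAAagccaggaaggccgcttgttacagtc
The octamer began 25 bases before the start in H2bc14 and 59 bases before it in H2bc8. The H2ac15 window held 3 copies of CCAAT and none of the other 2 motifs. It overlaps the window of H2bc15, which is read from the opposite strand. The H1f2 window held CCAAT 54 bases before the start, and the H4c4 window held CCAAT at 40 and TATAAA at 32 bases.

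Values are RMA signals on the log2 scale, and a difference is ethanol minus saline in log2 units. Array medians ranged over 6.74 to 6.84 at the early timing and over 7.21 to 7.30 at the late timing, so levels are not set across timings. Receptor genes of smell and pheromone sensing, which are mostly silent in the brain, set the background: a member was above it when the mean of its 4 values exceeded the 95th percentile of their 1372 probe sets (6.73 early, 7.73 late). By this measure 42 members were above background in the early arrays and 35 in the late arrays. The 9 markers of dividing cells, Mki67 and Top2a among them, were above background in 0 of 9 cases at either timing, and their mean lay between 6.09 and 6.13 on the ethanol late arrays and between 6.07 and 6.08 on the saline late arrays. One late array stood apart in regional markers. The mean of 10 markers of cerebellar neurons was 10.13 on ethanol late array 1 and 10.47 on ethanol late array 2, against 10.61 and 10.58 on the saline late arrays. All 10 were lower after late ethanol (median -0.34) and 4 passed the thresholds. In the early arrays the mean of 8 olfactory bulb markers was 7.11 and 7.41 with ethanol and 7.64 and 7.78 with saline, with all 8 lower (median -0.44) and 5 past the thresholds. The 3 oligodendrocyte markers averaged 11.67 and 11.71 on the ethanol late arrays and 11.87 and 11.79 on the saline late arrays, with both ethanol arrays below both saline arrays in all 3 (median -0.12), and all 3 were higher after early ethanol (median 0.22). The part of these marker differences in the histone values was not tested. In whole tissue, fewer cells of a type and less RNA per cell cannot be told apart.

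Ethanol on gestational days 8 and 11 was first set against saline to ask whether histone transcripts of the adult brain differed. No member passed the thresholds used in the study (unadjusted p under 0.05 together with a change of at least 1.2-fold) in either direction. Across all probe sets, 0.645% were lower and 0.278% were higher at those thresholds in the early comparison. No member had an unadjusted p under 0.05, against 401 of all 23410 probe sets, and 0% of all probe sets passed an adjusted p of 0.05. The difference was negative in 43 of 55 members (78.2%), against 59.8% of all probe sets, with a median of -0.03, against -0.02 over all probe sets. Both ethanol arrays lay below both saline arrays in 11 members (20%), against 18.9% of all probe sets, and above them in 0 members, against 7.5%. The count of non-overlapping members was thus close to that of the arrays as a whole. By class, the median difference was -0.12 for H1, -0.09 for H2A, -0.04 for H2B, and -0.005 and -0.006 for H3 and H4. These values rested on single saline arrays. Without saline early array 1 the median was 0.19 for H3, -0.05 for H1 and -0.04 for H2A, and without saline early array 2 it was -0.20 for H3, -0.18 for H1, -0.21 for H2A and -0.05 for H4. For H2B it was -0.003 without ethanol early array 2 and -0.07 without ethanol early array 1.

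Ethanol on gestational days 14 and 16 was then set against saline in the same way. A total of 12 members passed the thresholds as lower, against 0.722% of all probe sets, and 0 as higher, against 0.44%. The 12 were the H2B gene H2bc14, the H2A gene H2ac15 and 10 probe sets that read out the same 12 H3 genes. An unadjusted p under 0.05 was found for 14 members and for 583 of all probe sets. After adjustment over all probe sets, 0% passed and every member had an adjusted p of 1 in limma. An exact permutation test of 2 arrays against 2 cannot go below 0.333 (two-sided), so single members were tested in the fit alone. The difference was negative in 47 of 55 members (85.5%), against 52.7% of all probe sets. The median was -0.15, against -0.01 over all probe sets. Both ethanol arrays lay below both saline arrays in 30 members (54.5%), against 15.7% of all probe sets, and above them in 0 members, against 12.7%. By class the median was -0.35 for H3, -0.17 for H4, -0.12 for H2B, -0.05 for H2A and -0.005 for H1. With single late arrays left out, the median stayed between -0.38 and -0.29 for H3 and between -0.20 and -0.13 for H4. Under quantile normalization the median was -0.28 for H3 and -0.14 for H4, and under cyclic loess it was -0.29 and -0.14. It reached -0.03 for H2B without ethanol late array 1, and for H2A it was -0.22 without saline late array 2 and -0.0011 without saline late array 1. For H1 it ran from -0.09 without saline late array 2 to 0.02 without ethanol late array 2, so the order of H2B, H2A and H1 was not fixed.

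**Figure D1:**
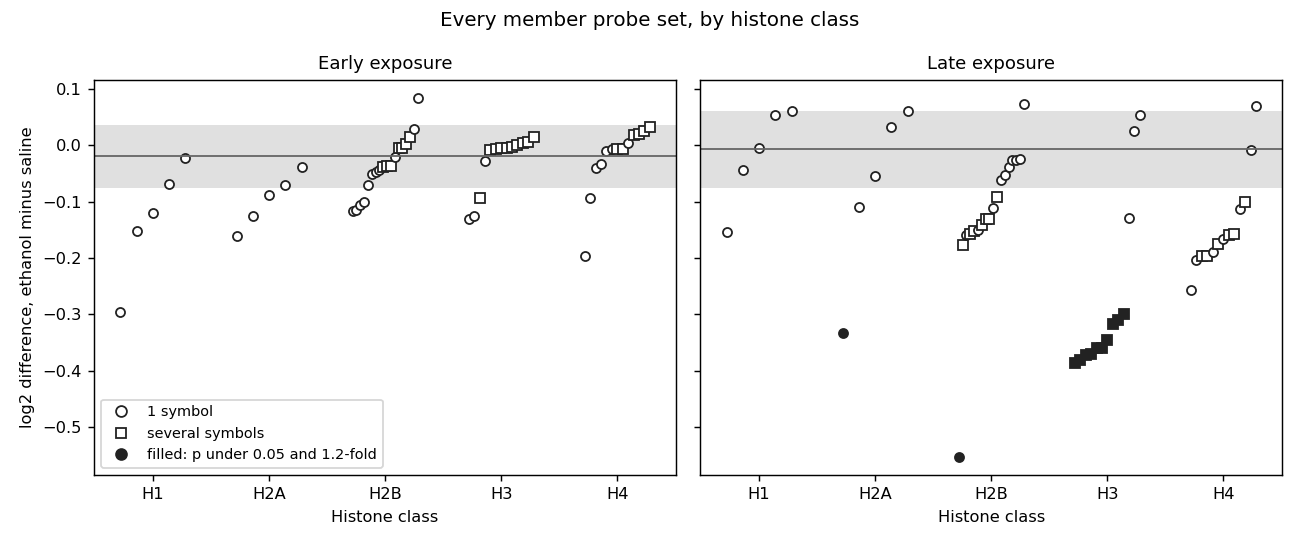
Log2 difference (ethanol minus saline, y axis) of each member by histone class (x axis), after early (left) and late (right) exposure. Circles are probe sets with 1 symbol, squares those with several, and filled symbols passed an unadjusted p under 0.05 and 1.2-fold. The line and the grey band are the median and the middle 50% of all 23410 probe sets, and the member shared by H1f4 and H2bc6 is not drawn. After late exposure 10 H3 squares lie between -0.39 and -0.30, below all H4 members, while the 3 H3 circles do not.

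The late count rested on members that are not independent. The 24 members with several symbols were all negative (median -0.19), and 10 passed the thresholds. Over all probe sets 52.7% were negative and 0.722% passed as lower. The median level of the 24 was 10.31 with late ethanol and 10.64 with late saline. At levels between 10 and 11, 77.4% of all late differences were negative. Of the 31 members with 1 symbol, 23 were negative (median -0.05) and 2 passed. When probe sets of the same symbols were averaged before the fit, 37 measurements remained, with a median of -0.10. Of these, 3 passed as lower (H2bc14, H2ac15 and the averaged H3 measurement). In that fit 151 of all 20736 measurements passed as lower and 99 as higher. The late count also changed with single arrays. Without ethanol late array 1, the array that was lowest in cerebellar markers, H2bc14 was the 1 member that passed and the median was -0.10. Without saline late array 1 or without saline late array 2, 3 members passed each time, H2bc14 and H2ac15 in both cases, and 0 of the 10 H3 probe sets. The H3 median was little changed by these omissions, at -0.31 and -0.35, although the p-values no longer passed.

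H3 carries many of the modifications that mark active and silent chromatin. The 10 H3 probe sets shared the symbols H3c1, H3c2, H3c3, H3c4, H3c6, H3c7, H3c8, H3c10, H3c11, H3c13, H3c14 and H3c15, and any pair of them correlated at 0.916 or more over the 8 arrays, so they are read here as repeated measurements of 1 set of near-identical genes. Their mean was 10.29 and 10.42 on the ethanol late arrays, against 10.71 and 10.70 on the saline late arrays. Both ethanol arrays were below both saline arrays in each of the 10, against 15.7% of all probe sets. At levels between 10 and 11, 77.4% of all late differences were negative. Their differences lay between -0.39 and -0.30. Averaged, the difference was -0.35 (SE 0.12, adjusted p = 1). In the early arrays the same mean was 10.15 and 10.19 with ethanol and 10.38 and 9.98 with saline. There the ethanol arrays lay between the saline arrays, and the averaged difference was -0.01 (SE 0.12).

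In single H3 probe sets both ethanol late arrays were likewise below both saline late arrays. Probe set 10408239 read 10.43 and 10.56 on the ethanol late arrays and 10.85 and 10.86 on the saline late arrays (difference -0.36, SE 0.12). Probe set 10404049 read 10.42 and 10.58 with late ethanol and 10.87 and 10.87 with late saline (difference -0.37, SE 0.13). Probe set 10408202 read 10.16 and 10.28 with late ethanol and 10.62 and 10.59 with late saline (difference -0.39, SE 0.14). In all 3, ethanol late array 1 was the lowest of the 4. Without that array their differences were -0.29, -0.29 and -0.33 and none passed the thresholds. None of the 3 H3 probe sets with 1 symbol passed. H3c4, H3c7 and H3c15 had late differences of -0.13, 0.02 and 0.05 (SE 0.13, 0.10 and 0.10), and all 3 were at background in the late arrays.

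H4 pairs with H3 in the core particle. Of its 13 members, 12 were negative after late exposure, 9 had both ethanol arrays below both saline arrays, and 0 passed the thresholds. Over all probe sets 52.7% were negative and 15.7% had both ethanol arrays below. The 5 probe sets that share 11 H4 symbols averaged 11.37 and 11.34 on the ethanol late arrays, against 11.49 and 11.56 on the saline late arrays. The groups did not overlap in this mean, and the 5 differences lay between -0.20 and -0.16. At such levels, above 11, 83.3% of all late differences were negative. Of these, 2 had an unadjusted p under 0.05, short of 1.2-fold, and as both held identical values on every array they count as 1 measurement. At the early timing the same mean was 11.84 and 11.85 with ethanol and 11.90 and 11.77 with saline, so the ethanol arrays lay between the saline arrays.

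Among H4 members with 1 symbol, H4c14 read 9.84 and 10.01 on the ethanol late arrays and 10.06 and 10.17 on the saline late arrays (difference -0.19, SE 0.09). The groups did not overlap, and the value passed the thresholds only without ethanol late array 2 (-0.27) among the alternatives run. It was -0.11 without ethanol late array 1 and -0.13 without saline late array 2. After early exposure H4c14 read 10.10 and 10.11 with ethanol and 10.09 and 10.11 with saline. H4c4 read 12.00 and 11.97 with late ethanol and 12.10 and 12.09 with late saline (difference -0.11, SE 0.07). At the early timing it read 12.06 and 12.02 with ethanol and 12.07 and 12.08 with saline, and the groups did not overlap at either timing. H4c3 had differences of -0.20 early and -0.26 late (SE 0.13 each), and it was at background in the late arrays. H4c9 was the 1 H4 member with a positive late difference (0.07, SE 0.10).

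H2B had 18 members, of which 17 were negative after late exposure and 14 after early exposure, against 52.7% and 59.8% of all probe sets. H2bc14 read 6.78 and 6.75 on the ethanol late arrays, against 7.23 and 7.40 on the saline late arrays. The groups did not overlap, and the difference of -0.55 (SE 0.11, adjusted p = 1) had the smallest p of any member. All 4 values lay below the background level of their own array, so the difference is one between signals in the range of silent genes. After early exposure H2bc14 read 7.29 and 7.52 with ethanol and 7.25 and 7.40 with saline. Those groups overlapped, with a difference of 0.08 (SE 0.11). H2bc14 passed the late thresholds in every alternative in which it was fitted as its own probe set, with differences from -0.64 to -0.47.

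The 7 H2B probe sets with 14 or 15 symbols were closer to the median of the members. Those with 15 symbols averaged 9.56 and 9.65 on the ethanol late arrays and 9.71 and 9.79 on the saline late arrays, with differences between -0.18 and -0.13. Those with 14 symbols averaged 9.69 and 9.89 with late ethanol and 9.90 and 9.94 with late saline, with differences between -0.16 and -0.09. Both means were lower on both ethanol arrays, and none of the 7 passed. In 14-symbol probe set 10403948 the groups overlapped, at 9.52 and 9.76 with late ethanol and 9.69 and 9.77 with late saline. H2bc4 read 11.61 and 11.71 on the ethanol late arrays and 11.80 and 11.82 on the saline late arrays (difference -0.15, SE 0.09), with no overlap. H2bc8 read 8.40 and 8.55 with late ethanol and 8.45 and 8.36 with late saline, and these groups overlapped. Its difference of 0.07 (SE 0.09) was the 1 positive value among the 18. H2bc1, which encodes a testis histone, was at background at both timings.

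H2A had 5 members. H2ac15 read 9.42 and 9.59 on the ethanol late arrays and 9.80 and 9.88 on the saline late arrays. The groups did not overlap, and the difference was -0.33 (SE 0.09, adjusted p = 1). Ethanol late array 1 was the lower of the pair. Without it the difference was -0.25, under 1.2-fold. In the unmoderated test on the 4 late arrays H2ac15 did not pass either. After early exposure H2ac15 read 9.64 and 9.65 with ethanol and 9.74 and 9.68 with saline. Those groups did not overlap either, and the difference was -0.07 (SE 0.09). H2aw read 10.45 and 10.37 with late ethanol and 10.50 and 10.44 with late saline (difference -0.05, SE 0.09), and these overlapped. H2ac1, which encodes a testis H2A, had a late difference of 0.06 (SE 0.09).

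All 5 linker histone members were negative after early exposure and 3 after late exposure, and none passed at either timing. Over all probe sets the negative share was 59.8% early and 52.7% late. H1f2 read 9.29 and 9.44 on the ethanol early arrays, against 9.77 and 9.54 on the saline early arrays. The groups did not overlap, and the difference was -0.30 (SE 0.14). It passed the thresholds when the 4 early arrays were fitted alone, but not in the unmoderated test. The difference was -0.18 without saline early array 1 and -0.41 without saline early array 2. In the late arrays H1f2 read 10.12 and 10.28 with ethanol and 10.33 and 9.98 with saline. There the groups overlapped, with a difference of 0.05 (SE 0.14). H1f3 had an early difference of -0.15 (SE 0.08), at background, and a late difference of -0.04. H1f5 had a late difference of -0.15 (SE 0.11), and H1f6, which encodes the testis H1, was at background at both timings.

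**Figure D2:**
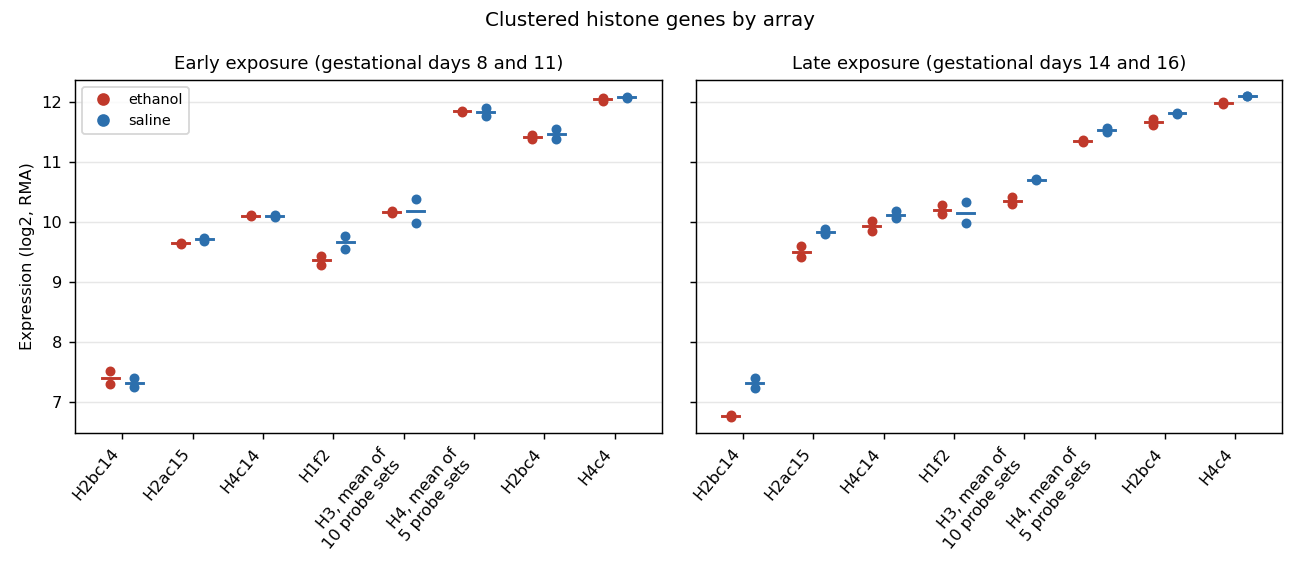
Expression (log2 RMA signal, y axis) on each array for 6 probe sets with 1 symbol and for the means of the 10 H3 and 5 H4 probe sets that share symbols (x axis), with ethanol left of saline. Points are arrays, each a pool of 3 mice, and bars are means of 2 arrays. After late exposure both ethanol points lie below both saline points in each case but H1f2. After early exposure the ethanol points of H2ac15, H1f2 and H4c4 lie below their saline points.

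Whether the response differed between the timings was tested as the early difference minus the late difference. This passed the thresholds in 1 of 55 members, against 1.99% of all probe sets. The member was H2bc14, with an early minus late difference of 0.64 (SE 0.15, adjusted p = 1). For H2ac15 it was 0.26 (SE 0.12), for H4c14 it was 0.19 (SE 0.12), and for H1f2 it was -0.35 (SE 0.19). The 10 H3 probe sets had values between 0.22 and 0.39, and none passed in the fit of all 8 arrays. These H3 values changed with single saline arrays. Without saline early array 1, the highest of the early arrays for H3, the early H3 median was 0.19. Without saline early array 2 it was -0.20.

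Late differences varied with signal level across the array. Over all probe sets the late median was 0.04 at mean levels up to 6 and between 6 and 7, and -0.06 at levels between 10 and 11, where 77.4% of probe sets were negative. The 13 members at that level had a median of -0.35. Above 11 the median was -0.06 over all probe sets, of which 83.3% were negative, and -0.16 over 7 members. Members between 9 and 10 had a median of -0.15, against -0.06 over all probe sets. Cyclic loess, which removes trends with level, gave 9 late members past the thresholds (7 of the 10 H3 probe sets, H2ac15 and H2bc14) and a median of -0.11. In the early arrays the 11 members between 10 and 11 had a median of -0.002, against -0.01 over all probe sets.

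**Figure D3:**
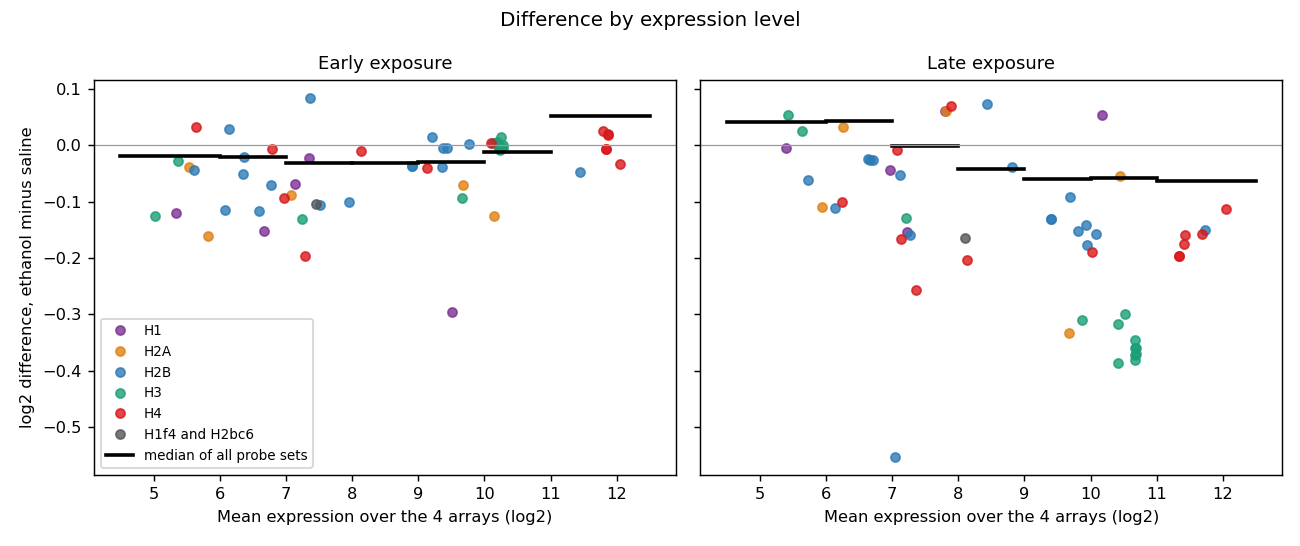
Log2 difference (ethanol minus saline, y axis) of all 55 members against their mean level over the 4 arrays of a timing (log2, x axis), after early (left) and late (right) exposure. Colours give the histone class, and black bars give the median of all probe sets in each band of level. In the late plot the bars fall to -0.06 at high level and the 10 H3 probe sets lie at -0.30 or lower.

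By position, 37 members lay on chromosome 13, 10 had symbols on both 13 and 3, 4 lay on 3, 3 on 11 and 1 on 6. The late median was -0.13 for those on 13, -0.14 for the 4 on 3 and -0.36 for the 10 with symbols on both, which are the H3 probe sets. The single member on 6, H4f16, had a late difference of -0.17 (SE 0.08). All 3 members on 11 were negative (median -0.03).

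Genes that work with the clustered histones were counted for comparison. Of 9 replication-independent histone variants, 0 passed at either timing. After late exposure 8 of the 9 were negative (median -0.11), against 52.7% of all probe sets. Both ethanol arrays lay below both saline arrays in 6 (66.7%), against 15.7% of all probe sets. They lay above them in 1, against 12.7%. The probe set annotated to H3f3a, the H3.3 gene, read 7.64 and 7.48 with late ethanol and 7.77 and 7.81 with late saline. The difference was -0.23 (SE 0.11), without overlap, and the mean was at background in the late arrays. The probe set annotated to H2az1, which encodes H2A.Z, had a late difference of -0.25 (SE 0.13). It read 10.76 and 11.19 on the ethanol arrays and 11.22 and 11.23 on the saline arrays, also without overlap. Most of that difference came from ethanol late array 1.

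Of 19 genes that transcribe the clustered genes or process their mRNAs, 0 passed at either timing, and the medians were -0.05 early and -0.06 late. Slbp, whose product binds the stem-loop, had a late difference of -0.08, and Npat, a coactivator of the clusters, had 0.03. Eri1, an exonuclease of the stem-loop end, had -0.17, and Upf1, which takes part in histone mRNA decay, had -0.19. Ccne2, a cyclin of the start of DNA replication, had the largest late difference of the list in size, 0.20 (SE 0.10). Of 12 histone chaperones, 0 passed at either timing (medians -0.05 early and -0.01 late).

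Of 35 genes of DNA replication and the cell cycle, 1 passed after early exposure and 0 after late exposure. The 1 was the probe set annotated to Pcna, the sliding clamp of DNA polymerases. It read 10.47 and 10.27 on the ethanol early arrays and 10.89 and 10.80 on the saline early arrays (difference -0.48, SE 0.10, adjusted p = 1). The late difference of Pcna was 0.001. After late exposure 13 of the 35 were negative (median 0.02), and Fen1, which removes RNA primers, had a difference of 0.20, short of 1.2-fold.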

How the data were processed

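Whole-brain RNA was hybridized to 8 Mouse Gene 1.0 ST arrays (Affymetrix). The authors summarized probe sets by RMA with quantile normalization and GC adjustment, and deposited log2 values made in Partek (version 6.6 in the submitters' processing notes). The late arrays were assumed to have been processed alike. The genome build of the array annotation is not given in the sources used here. Of 35556 probe sets, 12146 without a symbol were left out. Symbols such as H4bc24 (Hist1h2br, an H2B gene) and H1f1 to H1f6 were counted as clustered through their older names among RefSeq synonyms.

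Ethanol and saline were compared in limma 3.58.1 (R 4.3.3), with 4 group means fitted on 8 arrays, moderated variances and Benjamini-Hochberg adjustment over 23410 probe sets. The fit was checked on simulated data. The number of arrays limits the precision. Within a group, arrays correlated at 0.9929 or more. The labels do not pair replicate numbers. Alternatives were the unmoderated test, the 4 arrays of a timing alone, a replicate block, median centring, quantile normalization, cyclic loess, removal of the lowest 25% of probe sets, every probe set, an intensity trend, each array left out, and subsets of members. Averaging same-symbol probe sets and a crossed block were added after the data were seen. Members, lists and settings were chosen with earlier results of these data known, so no count here is independent evidence.

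Members to name were those with 1 symbol past the thresholds (otherwise the 3 smallest p per direction) and up to 4 with several symbols. The member with the highest mean of each class was added. Some of these are given by their difference alone. H2bu2 and H3 probe set 10404065 appear only in counts, means and figures. Other lists were counted, with up to 4 genes each. Each listed gene was read from its probe set with 1 symbol and the highest mean. Whether that probe set reads the annotated gene alone was not tested. Genes and members outside this rule were named after their values were seen. Figures were drawn in matplotlib 3.10.9 (Python 3.11.15).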

Additional observations from a re-analysis of the deposited data

Results flagged for a closer look

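H2bc14 was the 1 member for which the early and late differences themselves differed at an unadjusted p under 0.05 and 1.2-fold. Its early minus late difference was 0.64 (SE 0.15, adjusted p = 1 in limma). A count of 1 among 55 members is near the share over all probe sets (1.99%). The late values of this probe set lay below the background level of each late array.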

How the results depend on the processing

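Results are limited by 2 arrays per group and by signals near background for 13 early and 20 late members, and no call survived adjustment. No result changed direction while past its thresholds in the alternatives run. Early members past the thresholds as lower numbered 1 (H1f2) with 4 arrays alone and with cyclic loess, and 0 to 1 with an array left out, where H1f2 passed without saline early array 2 or either saline late array, and H3c4 without ethanol early array 2. The early median ran from -0.10 (without saline early array 2) to -0.0051 with an array left out. Late members past the thresholds numbered 1 to 12 with an array left out, 2 among members with 1 symbol and 3 with same-symbol probe sets averaged. The late median was -0.11 with cyclic loess, -0.19 (without ethanol late array 2) to -0.10 (without ethanol late array 1) with an array left out, -0.052 with 1 symbol and -0.10 with averaging. Within H3 the late median was 0.02 for the 3 members with 1 symbol. Members past the thresholds for early minus late numbered 2 (H1f2 and H2bc14) with cyclic loess, 0 among members above background, and 1 to 11 with an array left out. With a replicate block, 12 late and 0 early members passed and no other call changed. Same-numbered arrays deviated together early (r = 0.466) and in opposition late (r = -0.464), and a crossed late block also gave 12. Where 1 array of a group remained, its spread was taken to be that of the other groups. Where a count changed, the cause was not tested.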

Other observations

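A pair of H2A probe sets lists clustered H2A genes together with the replication-independent H2ax and was not counted among the members. Probe set 10494386 (19 symbols) read 9.82 and 10.03 on the ethanol late arrays and 10.06 and 10.17 on the saline late arrays, a difference of -0.19 (SE 0.10) with no overlap. Probe set 10409220 (20 symbols) read 11.06 and 11.01 with late ethanol and 11.07 and 11.16 with late saline, a difference of -0.08 (SE 0.08), also without overlap. Their early differences were -0.08 (SE 0.10) and -0.04 (SE 0.08).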
